A study of Rattus norvegicus with 16 samples.

Results

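The data describe 8 transcription factor genes of the immediate early class in adrenal lesions of p27Kip1 mutant rats and in wild-type adrenal medulla. The mutated gene, spelled Cdknb1 in the labels, encodes a protein that brakes the cell cycle by inhibiting cyclin-dependent kinases. They are Fos, Jun, Junb, Egr1, Egr2, Nr4a1, Nr4a3 and Atf3, and they were taken as the probe sets to which the array annotation gives a listed symbol and no other. This left 14 of the 31042 probe sets that are not controls, and 8 of 14217 genes. All 8 genes were measured, and no filter on low values was applied.

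All 16 arrays held total RNA from rats of a mixed Sprague–Dawley white eye/Wistar–Kyoto strain. Both lesions came from rats labelled as p27Kip1 mutant. There were 8 arrays of adrenal medullary hyperplasia at 2 months of age, and 2 arrays of wild-type medulla of the same age, a pool of 2 and a pool of 3 animals. There were 4 arrays of pheochromocytoma, a chromaffin cell tumour, taken from 3 rats aged 8 months and 1 rat aged 9 months. Their wild-type counterparts were a pool of 2 rats of 10 months (old pool 1) and a pool of 2 rats of 12 and 17 months (old pool 2). The series compared each lesion with wild-type medulla, which was of the same age only for hyperplasia. Both old pools came from rats older than those with tumours. The part of age in that comparison was not tested. A wild-type array averages animals, so the spread between wild-type arrays is not that between single animals.

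Immediate early genes are transcribed within minutes of a stimulus, without new protein synthesis, and most of their mRNAs are short-lived. In chromaffin cells they respond to nerve input, depolarization, growth factors and stress, through serum response factor and the cAMP response element binding protein CREB. Fos, Jun and Junb code for subunits of the dimeric factor AP-1. Egr1 and Egr2 code for zinc finger factors. Nr4a1 and Nr4a3 code for orphan nuclear receptors. Atf3 codes for a stress-induced factor of the ATF/CREB family.

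Before the comparisons, 3 properties of the arrays bear on every value given here. The defining chromaffin gene Th, which codes for tyrosine hydroxylase, lay between 13.81 and 14.28 on the log2 scale on all 16 arrays. The mean of 9 chromaffin markers, Th among them, was 12.97 to 13.10 in hyperplasia, against 12.91 to 13.08 in young wild type, and 12.73 to 13.18 in pheochromocytoma, against 12.28 to 12.72 in old wild type. Of these 9, 3 were higher in pheochromocytoma than in old wild type past the threshold (Ddc by 0.85, Phox2a by 0.81 and Slc18a1 by 0.73). That is 33.3%, beside 14.3% of all probe sets called in either direction. In hyperplasia 1 (11.1%) was higher than in young wild type, beside 7.40% of all probe sets. Ddc and Phox2a (22.2%) were lower in old than in young wild type, near the 23.7% of all probe sets called. All 9 were lower in old pool 2 than in old pool 1. Their part in the results was not tested. The mean of 10 adrenal cortex markers was 11.06 to 11.91 in hyperplasia, against 12.31 to 12.41 in young wild type, and 10.94 to 12.39 in pheochromocytoma, against 12.73 to 13.03 in old wild type, so the level was higher in both wild-type groups than in the lesions of the same comparison. In tissue RNA, fewer cells of a type and less RNA per cell cannot be told apart. Added control RNAs averaged 3.63 to 3.82 on the 6 older arrays and 7.12 to 9.00 on the 10 arrays of 2 months, so age and the way the arrays were prepared cannot be told apart. Xist, a non-coding RNA made from the inactivated X, lay at 11.29 to 12.66 or at 2.86 to 4.32. It went against the labelled sex on 6 arrays, which were hyperplasia 1, 2, 5 and 6 and both young wild-type pools. No sex term was therefore used in the fits. Hyperplasia arrays 3 to 6 had Xist and hyperplasia arrays 1, 2, 7 and 8 did not.

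The AP-1 genes are described first. Values are deposited log2 values of the gene's brightest probe set. Fos was 7.93, 11.84, 11.11 and 7.76 in pheochromocytomas 1 to 4, against 7.45 and 10.76 in old pools 1 and 2. In hyperplasia arrays 1 to 8 Fos was 9.06, 8.65, 11.03, 10.96, 8.74, 8.77, 7.09 and 7.67, against 7.19 and 7.74 in the young pools. Tumours 2 and 3, old pool 2 and hyperplasia arrays 3 and 4 stood high, and the groups overlapped in both comparisons. A dimmer Fos probe set (1371283_at) stayed between 5.14 and 5.80 on all arrays.

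Junb was 7.60, 8.87, 9.12 and 7.43 in the 4 tumours, against 7.74 and 10.72 in the old pools. The hyperplasia arrays gave 8.67, 8.41, 9.22, 9.57, 9.12, 9.21, 8.26 and 8.45, against 8.30 and 8.55 in the young pools. The same tumours, 2 and 3, were the higher ones, and old pool 2 was the highest of all 16 arrays. Hyperplasia arrays 3 to 6 exceeded the other 4 hyperplasia arrays.

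Jun had another pattern. It was 10.62, 11.25, 10.54 and 9.83 in the tumours, against 11.16 and 12.45 in the old pools. The 8 hyperplasia arrays gave 11.45, 11.64, 11.35, 11.51, 11.36, 11.37, 11.44 and 11.63, against 11.54 and 11.73 in the young pools. The 8 hyperplasia arrays spanned 0.29, and all 4 tumours lay below all of them.

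Egr1 was 9.34, 12.81, 13.43 and 9.49 in the tumours, against 9.49 and 12.06 in the old pools. In hyperplasia it was 11.65, 11.52, 12.77, 12.67, 11.57, 11.94, 9.11 and 9.65, against 10.90 and 10.30 in the young pools. Tumours 2 and 3 were again the high ones, and hyperplasia arrays 7 and 8 the low ones. Egr2 was 5.81, 7.63, 8.06 and 6.06 in the tumours, against 5.88 and 7.13 in the old pools. Hyperplasia arrays 1 to 8 gave 6.50, 6.10, 7.69, 7.44, 6.83, 6.48, 6.08 and 5.81, against 5.87 in each young pool. Both Egr genes overlapped between lesion and wild type at each age. The second Egr2 probe set (1398266_a_at), at 3.70 to 4.39, lay below the first quartile of the probe sets on every array (4.71 to 4.93) and did not follow the first.

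Nr4a1, also known as Nur77, was 9.11, 10.44, 11.05 and 7.42 in the tumours, against 9.65 and 11.80 in the old pools. In hyperplasia it was 7.79, 8.00, 10.66, 10.91, 10.40, 10.62, 7.03 and 7.62, against 8.53 and 8.77 in the young pools. The hyperplasia values fell into 4 high arrays, numbers 3 to 6, and 4 low ones, and the young pools lay between them. Nr4a3, also known as NOR-1, was 6.13, 7.99, 10.32 and 4.66 in the tumours, against 8.80 and 12.56 in the old pools. Across hyperplasia it was 7.22, 7.67, 7.50, 7.67, 9.39, 9.64, 8.24 and 8.65, against 10.02 and 9.09 in the young pools. Tumour 3 lay between the old pools and the other 3 tumours lay below both of them, while hyperplasia arrays 5 and 6 exceeded young pool 2.

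Atf3 was 5.41, 6.61, 6.62 and 5.86 in the tumours, against 4.72 and 7.64 in the old pools. In hyperplasia it was 4.40, 4.13, 5.34, 5.51, 5.93, 5.81, 4.92 and 4.58, against 4.79 and 5.22 in the young pools. The old pools enclosed all 4 tumours, and the young pools lay within the range of hyperplasia.

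**Figure D1:**
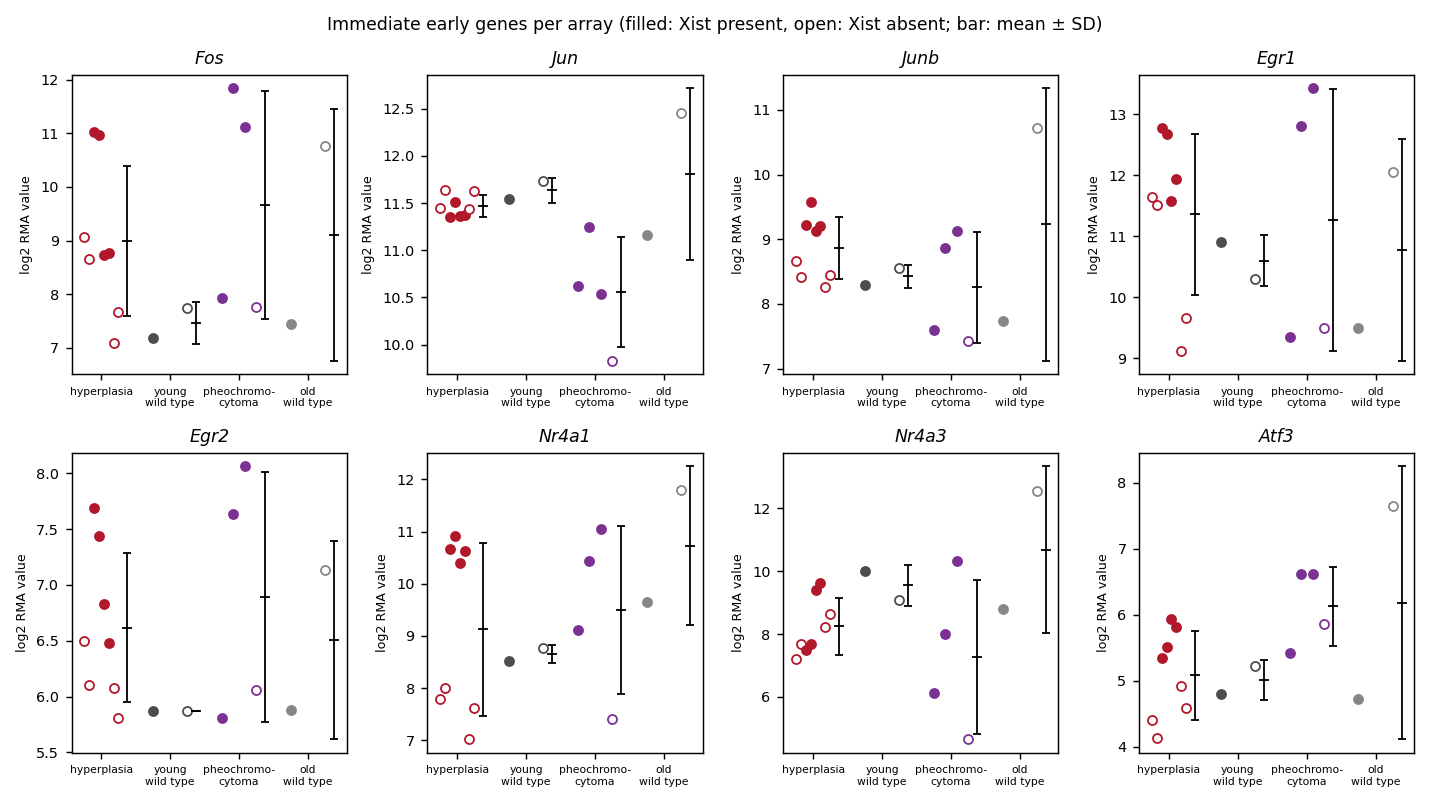
Deposited log2 values of the brightest probe set of each gene (vertical axis) in hyperplasia (8 arrays), young wild type (2), pheochromocytoma (4) and old wild type (2), with the mean ± SD beside each group. Filled points are arrays with Xist and open points arrays without it; Nr4a1 separates the hyperplasia arrays by Xist, and old pool 2 is the upper point of old wild type in all 8 panels.

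These genes varied between arrays of a group more than most genes on the array. The within-group SD from the fit over 16 arrays was 1.65 for Fos, 1.61 for Nr4a3, 1.57 for Egr1 and 1.56 for Nr4a1, where the median of all probe sets was 0.18. Only 12, 13, 15 and 16 of the 31042 probe sets varied more than Fos, Nr4a3, Egr1 and Nr4a1 in that order. Atf3 (0.85), Junb (0.83) and Egr2 (0.80) had 118, 129 and 155 probe sets above them, and Jun, at 0.40, had 1920. The dimmer probe sets of Fos (1371283_at, 0.16) and Egr2 (1398266_a_at, 0.17) lay below the median. Within hyperplasia alone, the SD of the brightest Jun probe set was 0.12, and 25722 probe sets varied more. In fold terms, the lowest and the highest array differed most for Nr4a3 (239.0-fold), then for Nr4a1 (27.3-fold) and Fos (26.9-fold), and least for Jun (6.12-fold) and Egr2 (4.76-fold).

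The wild-type pools of 1 age illustrate that spread. Old pool 2 exceeded old pool 1 for all 8 genes, by 3.76 for Nr4a3, 3.31 for Fos, 2.97 for Junb, 2.92 for Atf3, 2.57 for Egr1, 2.16 for Nr4a1, 1.28 for Jun and 1.25 for Egr2 on the log2 scale. A gap of over 1 in that direction was found for 681 of all probe sets (2.19%). It was also found for 24 of 45 measured genes on a list of other immediate early and primary response genes, and for 3 of 7 heat shock genes. None of 9 chromaffin markers and 1 of 10 cortex markers had it. Among markers of other cell types, 2 of 6 for adipocytes and 1 of 12 for macrophages or leukocytes had it. No marker of red blood cells, of Schwann or sustentacular cells, of endothelium or of fibroblasts had it. The part of cell content in the gap was not tested. The pools differed in labelled sex and age, and the part of either in the gap was not tested. Between the young pools the 8 differences ran from -0.92 for Nr4a3 to 0.55 for Fos.

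**Figure D2:**
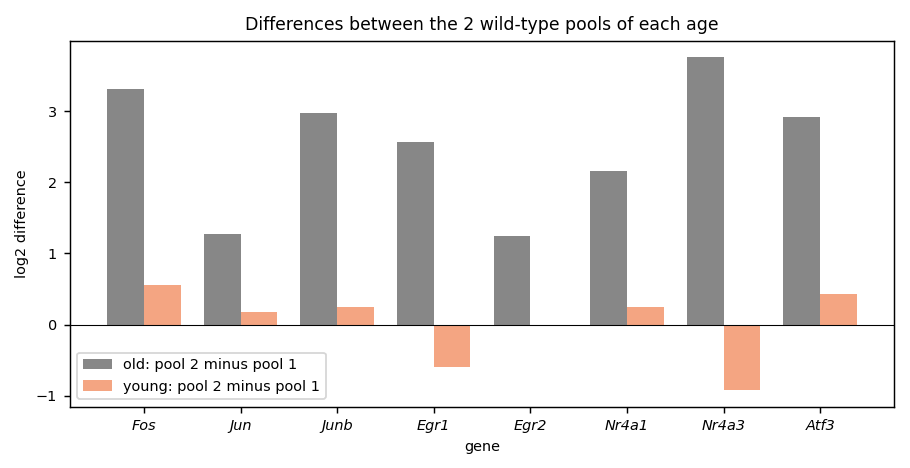
Bars give pool 2 minus pool 1 on the log2 scale for the old wild-type pools (grey) and the young wild-type pools (orange), 1 pair of bars per gene. Every grey bar exceeds 1, from 1.25 for Egr2 to 3.76 for Nr4a3, whereas the orange bars lie between -0.92 and 0.55.

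The first comparison set hyperplasia against wild-type medulla at 2 months. None of the 8 genes passed an adjusted p of 0.05 in limma, where 7.40% of all probe sets did. At an unadjusted p under 0.05 the count was also 0, against 7045 of the 31042 probe sets. Fos averaged 9.00 ± 1.39 in the 8 hyperplasia arrays and 7.47 ± 0.39 in the 2 young pools (mean ± SD), and differed by 1.53 ± 1.13 (SE; limma adjusted p = 0.462). Egr1 differed by 0.76 ± 1.08 and Egr2 by 0.75 ± 0.55. Nr4a1 averaged 9.13 ± 1.65 in hyperplasia and 8.65 ± 0.17 in young wild type, and Nr4a3 averaged 8.25 ± 0.90 in hyperplasia and 9.55 ± 0.65 in young wild type. Their adjusted p values were 0.842 and 0.531. Junb differed by 0.44 ± 0.57, Jun by -0.17 ± 0.28 and Atf3 by 0.07 ± 0.58. Apart from Fos, Egr2 and Nr4a3, each difference was smaller than its standard error. With the brightest probe set, hyperplasia and young wild type were apart for none of the 8 genes, which was so for 19.2% of all probe sets. Dimmer probe sets of Nr4a3 (1393389_at) and Jun (1374404_at) had all hyperplasia arrays below both young pools. They differed by -1.66 ± 0.80 (limma adjusted p = 0.228) and -0.33 ± 0.33 (limma adjusted p = 0.609).

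Among the 45 other immediate early and primary response genes, 1 rose and 2 fell in hyperplasia, or 6.67% of the list, near the 7.40% of all probe sets. Myc, a growth-promoting transcription factor, averaged 8.84 in hyperplasia and 7.79 in young wild type, a rise of 1.05 ± 0.21 (limma adjusted p = 0.00664). Crem, which codes for a cAMP-responsive modulator and its inducible repressor form, fell by 1.20 ± 0.33 (adjusted p = 0.0365). Homer1, a synaptic scaffold gene with an activity-induced short form, fell by 1.14 ± 0.29 (adjusted p = 0.0243). The median difference of the list was -0.05, against -0.023 over all probe sets. Of 7 measured heat shock genes, Hspa1a fell by 1.89 and Hsph1 fell by 0.89 in hyperplasia. Of 22 measured regulators of immediate early genes, 1 passed: Ep300, a coactivator of CREB, rose by 0.55 ± 0.15. Among 6 measured adrenal genes with known Egr1, AP-1 or NR4A sites, 1 was lower past the threshold (16.7% of the list). Egr3, the next Egr gene, lay between 4.87 and 5.43 on all 16 arrays and passed in none of the comparisons.

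The second comparison set pheochromocytoma against wild-type medulla of old rats. Jun was the 1 gene of the 8 that passed, where 14.3% of all probe sets did. It averaged 10.56 ± 0.58 in the 4 tumours and 11.80 ± 0.91 in the 2 old pools, so Jun fell by 1.25 ± 0.31 on the log2 scale, or 2.37-fold (limma adjusted p = 0.0149). Tumour 2, at 11.25, lay just above old pool 1, at 11.16, so the groups overlapped. A second Jun probe set (1369788_s_at) fell by 1.29 ± 0.26 (limma adjusted p = 0.00507). On it all 4 tumours, at 9.39 to 10.55, lay below both old pools, at 11.18 and 11.63. Groups were apart in this way, in either direction, for 39.8% of all probe sets. The dimmest of the 3 (1374404_at) differed by -0.96 ± 0.36 (limma adjusted p = 0.0872). Without old pool 2 the difference of the brightest Jun probe set was -0.60 ± 0.32 (limma adjusted p = 0.376). When the mean of the cortex markers entered the fit it was -0.55 ± 0.38 (adjusted p = 0.585), and 8 of the 10 cortex markers themselves fell in the tumours.

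Nr4a3 averaged 7.28 ± 2.45 in the tumours and 10.68 ± 2.66 in old wild type, a difference of -3.41 ± 1.21 that missed the threshold (adjusted p = 0.0710). Its second probe set (1393389_at) fell by 3.12 ± 0.87 (adjusted p = 0.0265), with 7.38 ± 1.47 in the tumours and 10.50 ± 2.47 in old wild type. The third (1369217_at) differed by -0.28 ± 0.70, so the Nr4a3 probe sets disagreed. Without tumour 3, the tumour with the highest value, the brightest probe set fell by 4.42 ± 1.03 (adjusted p = 0.0139). Without old pool 1 it fell by 5.29 ± 1.42 (adjusted p = 0.0207), and without old pool 2 the difference was -1.53 ± 1.42 (adjusted p = 0.659).

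The other members gave wide errors in this comparison. Junb averaged 8.26 ± 0.86 in the tumours and 9.23 ± 2.10 in old wild type, a difference of -0.98 ± 0.63 (adjusted p = 0.322). Nr4a1 differed by -1.22 ± 1.17, Fos by 0.56 ± 1.24, Egr1 by 0.49 ± 1.18, Egr2 by 0.38 ± 0.60 and Atf3 by -0.06 ± 0.64. No member kept the tumours apart from the old pools with its brightest probe set, against 39.8% of all probe sets. That these did not pass does not show that the levels were alike. Without old pool 1 all 8 differences were below 0, and without old pool 2, 5 of the 8 were above 0.

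The wider list of 45 genes leaned down in pheochromocytoma, with 11 members lower and 1 higher past the threshold and a median of -0.33, against -0.014 over all probe sets. For comparison, 5.95% of all probe sets were called lower. Nfil3, a repressor of the bZIP class, averaged 7.71 in the tumours and 10.69 in old wild type (-2.98 ± 0.50, adjusted p = 0.00153). Crem fell by 2.18 ± 0.36, Ptgs2, the inducible cyclooxygenase, fell by 2.11 ± 0.66, and Maff, a small Maf factor, fell by 2.05 ± 0.47. The fall of Ptgs2 rests on old pool 2, at 7.15. Old pool 1 had 2.97 and the tumours 2.83 to 3.04, all below the first quartile of the probe sets (4.71 to 4.93). Fosb, another AP-1 subunit gene, differed by -1.65 ± 1.19 and Nr4a2 by -0.78 ± 1.01, both short of the threshold. Myc was the 1 that rose, by 0.73 ± 0.23. Of the 7 heat shock genes, 4 fell, among them Hspa1a, which fell by 2.04 ± 0.60. Old pool 2 had the higher value of the old pools for 39 of the 45 listed genes. Of 22 measured regulators of immediate early genes, Camk4, a calcium-activated kinase gene, rose by 0.38 ± 0.11 and Nab1, a corepressor of the Egr proteins, fell by 0.59 ± 0.16. Among 6 measured adrenal genes with known Egr1, AP-1 or NR4A sites, 1 was lower past the threshold (16.7% of the list).

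**Figure D3:**
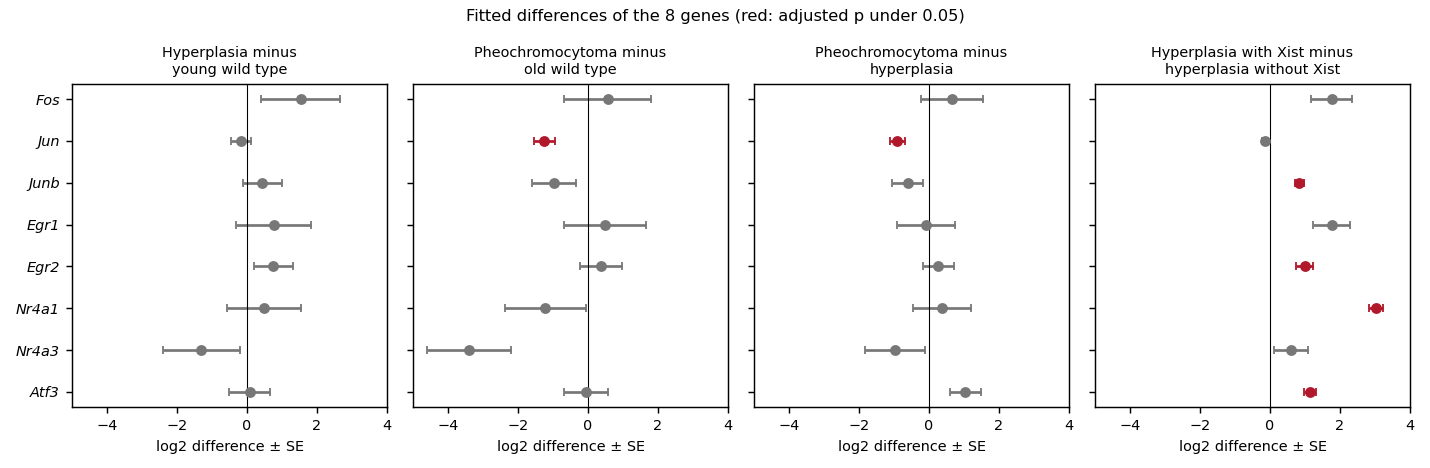
Fitted log2 differences ± SE of the 8 genes in 4 comparisons, each panel with its own 2 groups named above it. Red marks an adjusted p under 0.05: Jun is red against old wild type (-1.25) and against hyperplasia (-0.91), and Nr4a1, Junb, Atf3 and Egr2 are red between hyperplasia arrays with and without Xist.

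The difference between the effects in the tumours and in hyperplasia was below 0 for all 8 genes, with a median of -1.02, but none passed (0.0258% of all probe sets did). Jun gave -1.08 ± 0.42 (adjusted p = 0.357), Nr4a3 -2.10 ± 1.64 and Nr4a1 -1.70 ± 1.59. All 8 values rest on the same 4 wild-type arrays. Without old pool 2, 5 of the 8 were above 0 (Fos 0.69, Junb 0.07, Egr1 1.02, Egr2 0.26 and Atf3 1.33), and none passed.

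Set against hyperplasia, Jun fell by 0.91 ± 0.22 on the log2 scale in the tumours, with means of 10.56 in the tumours and 11.47 in hyperplasia (adjusted p = 0.00349). All 3 Jun probe sets passed in the same direction. The other 7 genes did not pass, Atf3 coming nearest with 1.04 ± 0.45 (adjusted p = 0.0762). In this comparison 40.7% of all probe sets passed, and age, array preparation and RNA quality moved with the groups: the 3′ minus 5′ difference of the hexokinase control was 2.16 to 3.30 on the older arrays and 1.07 to 1.63 on the 2-month arrays. Called lower were 20.3% of all probe sets. Of the 45 other immediate early genes 7 rose and 3 fell (22.2% of the list), and of the 22 regulators 1 rose and 7 fell (36.4%). The largest rise was that of Ccn1, a matricellular protein gene, at 2.90 ± 0.48, with 7.99 in the tumours and 5.09 in hyperplasia.

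Between the ages of the wild-type rats, none of the 8 genes passed (23.7% of all probe sets did). All 8 fitted differences of old minus young were above 0, from 0.17 ± 0.36 for Jun to 2.08 ± 1.35 for Nr4a1. These rest on 2 pools a side. Without old pool 2, 6 of the 8 were below 0, down to -1.11 ± 1.63 for Egr1, and only Egr2 (0.01) and Nr4a1 (1.00) were above it. By group mean, Jun and Nr4a3 ran down from old wild type through young wild type and hyperplasia to pheochromocytoma. Junb ran from old wild type through hyperplasia and young wild type to pheochromocytoma. The other 5 genes had their lowest mean in young wild type, and their highest was in pheochromocytoma for Fos and Egr2, in hyperplasia for Egr1 and in old wild type for Nr4a1 and Atf3. Of neighbouring groups in these orders that were compared, only pheochromocytoma and hyperplasia, for Jun, differed beyond the spread of the arrays. Hyperplasia was not tested against old wild type, nor pheochromocytoma against young wild type. Between old and young wild type, 5 of the 45 other immediate early genes were higher in old and 1 was lower (13.3%). Among the 22 regulators, 1 was higher in old and 6 were lower (31.8%), against 23.7% of all probe sets.

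Within hyperplasia, labelled females against labelled males gave no call among the 8 genes and none among all probe sets (0.00%) in limma. An unadjusted p under 0.05 was found for 3 of the 8, against 1178 of the 31042 probe sets. Nr4a3 averaged 7.51 ± 0.21 in labelled females and 8.98 ± 0.65 in labelled males (n = 4 each). It differed by -1.47 ± 0.28 (limma adjusted p = 0.744), and those arrays did not overlap, as was so for 2.50% of all probe sets. Its second probe set (1393389_at) differed by -1.20 ± 0.18 (limma adjusted p = 0.334), also without overlap. The third (1369217_at) differed by 0.28 ± 0.20 and overlapped, so the Nr4a3 probe sets disagreed here too. Fos was 9.93 ± 1.24 in labelled females and 8.07 ± 0.83 in labelled males, and Egr1 was 12.15 ± 0.66 in labelled females and 10.57 ± 1.40 in labelled males. Both had an adjusted p of 1.00.

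When the hyperplasia arrays were split by the measured Xist level instead, 4 of the 8 genes were higher in the arrays with Xist (4.12% of all probe sets were called higher, and 8.76% in either direction). This split comes from the data and not from the labels. Nr4a1 averaged 10.65 ± 0.21 in the 4 arrays with Xist and 7.61 ± 0.42 in the 4 without, a rise of 3.03 ± 0.19, or 8.20-fold (limma adjusted p = 1.06e-05). Atf3 rose by 1.14 ± 0.17 (adjusted p = 0.00411), with 5.65 ± 0.27 in arrays with Xist and 4.51 ± 0.33 in arrays without. Junb rose by 0.84 ± 0.12 (adjusted p = 0.00331), with 9.28 ± 0.20 in arrays with Xist and 8.45 ± 0.17 in arrays without. Arrays with and without Xist did not overlap for these 3 genes, which held for 15.9% of all probe sets. Egr2 rose by 0.99 ± 0.24 (adjusted p = 0.0291), and its highest array without Xist lay above its lowest array with Xist.

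Egr1 and Fos each differed by 1.76, with errors of 0.53 and 0.58 and adjusted p values of 0.0622 and 0.0855. Jun differed by -0.14 ± 0.09 and Nr4a3 by 0.60 ± 0.48, although the dimmest Nr4a3 probe set rose by 0.58 ± 0.11 (adjusted p = 0.0130). The dimmer Jun probe sets also differed below 0, 1369788_s_at by -0.38 ± 0.11 (limma adjusted p = 0.062) and 1374404_at by -0.23 ± 0.10 (limma adjusted p = 0.173). The difference between any of these effects and another was not tested.

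**Figure D4:**
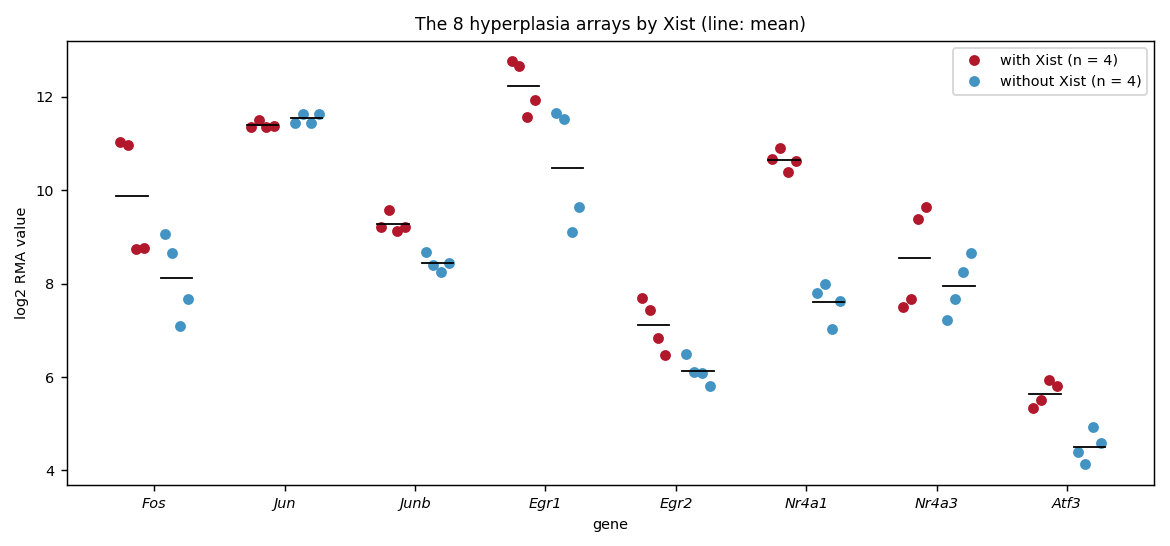
Log2 values of the 8 genes (vertical axis) on the 4 hyperplasia arrays with Xist (red) and the 4 without (blue), with lines at the means. Nr4a1 shows the widest separation, 10.40 to 10.91 with Xist against 7.03 to 8.00 without. Jun overlaps, at 11.35 to 11.51 with Xist and 11.44 to 11.64 without.

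Other measurements moved with that split. Arrays with neighbouring numbers (1 and 2, 3 and 4, 5 and 6, 7 and 8) lay close in these genes: the largest gap within such a pair was 0.59 for Nr4a1, whose 8 arrays spanned 3.87, and 0.57 for Fos, which spanned 3.94. Over 30421 probe sets, 6 of the 8 arrays had their neighbour as the most correlated array, but arrays 7 and 8 correlated at only 0.01, and arrays 2 and 8 were each other's closest (0.49). The labels call the 8 arrays biological replicates and do not say that neighbours share an animal. With neighbours averaged, Nr4a1, Junb and Atf3 still passed and Egr2 did not (adjusted p = 0.0993). The cortex marker mean was 11.06 to 11.60 in arrays with Xist and 11.30 to 11.91 in arrays without, and with it as a covariate Egr2 again did not pass (adjusted p = 0.207). The 3′ minus 5′ difference of the GAPDH control was 0.04 to 0.21 in arrays with Xist and 0.18 to 0.43 in arrays without, and that of the actin control was 1.37 to 1.58 with Xist and 1.52 to 2.01 without. Added control RNAs averaged 7.12 to 8.00 with Xist and 7.78 to 9.00 without. Their part in the result beyond these values was not tested. Outside hyperplasia, Nr4a1 was 9.65 in old pool 1, which has Xist, and 11.80 in old pool 2, which does not, and it was 8.53 in young pool 1, with Xist, and 8.77 in young pool 2, without. Among the tumours, those with Xist had 9.11, 10.44 and 11.05 and the 1 without it had 7.42, the lowest.

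Of the 45 other immediate early genes, 13 rose and 2 fell in the hyperplasia arrays with Xist. That is 28.9% of the list called higher, beside 4.12% of all probe sets, and 33.3% called in either direction, beside 8.76%. Nr4a2, the remaining NR4A receptor gene, rose by 1.54 ± 0.12 (8.26 with Xist, 6.72 without; adjusted p = 0.000106). Fosb rose by 1.44 ± 0.17, and Klf4, a Krüppel-like factor gene, rose by 1.31 ± 0.17. Rgs2, a regulator of G protein signalling, rose by 1.28 ± 0.09, and Dusp1, a phosphatase gene that shuts off MAP kinases, rose by 1.23 ± 0.17. Homer1 fell by 0.48 ± 0.12 and Ptgs2 fell by 0.32 ± 0.09. Ptgs2 lay between 2.89 and 3.4 on the 8 hyperplasia arrays, below the first quartile of the probe sets. Jund, an AP-1 gene that is expressed steadily in many tissues, differed by 0.06 ± 0.13.

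Of the 22 regulators (kinases, coactivators, corepressors and the factors that bind their promoters), none rose and 2 fell with Xist in hyperplasia, or 9.09% of the list, near the 8.76% of all probe sets. Creb1, the gene of CREB, averaged 9.10 in arrays with Xist and 9.71 in arrays without (-0.62 ± 0.09, adjusted p = 0.00379). Nab2, a corepressor of the Egr proteins, averaged 8.19 in arrays with Xist and 8.79 in arrays without (-0.60 ± 0.12, adjusted p = 0.0132). Of 6 measured adrenal genes with known Egr1, AP-1 or NR4A sites, which include Th, Pnmt and Star, none passed and 5 differed below 0. An unadjusted p under 0.05 was found for 3 of the 6, against 7909 of the 31042 probe sets. Penk, the gene of the opioid peptide precursor proenkephalin, averaged 9.56 ± 1.51 in arrays with Xist and 11.41 ± 0.07 in arrays without. It differed by -1.85 ± 0.56 (limma adjusted p = 0.0654), and those arrays did not overlap, as was so for 15.9% of all probe sets. The neighbouring arrays 3 and 4 had the lowest Penk values, 8.35 and 8.18. Arrays 5 and 6 had 10.61 and 11.11, against 11.34 to 11.48 in arrays without Xist. Pnmt, the epinephrine-forming enzyme gene and an Egr1 target, differed by -0.29 ± 0.14.

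Promoter sequence was at hand for 4 of the 8 genes. The 250 bases upstream of the annotated start are given for Nr4a1, Junb and Egr2, which were higher in the hyperplasia arrays with Xist, so that the elements bound by CREB and serum response factor can be seen in place. The sequences are RefSeq's, of build GRCr8, read 5′ to 3′ on the gene's strand. Capitals mark the short cAMP response motif CGTCA on either strand and, in Egr2, the CArG box, the element of serum response factor.
Nr4a1, chr7:134259888-134260137, plus strand: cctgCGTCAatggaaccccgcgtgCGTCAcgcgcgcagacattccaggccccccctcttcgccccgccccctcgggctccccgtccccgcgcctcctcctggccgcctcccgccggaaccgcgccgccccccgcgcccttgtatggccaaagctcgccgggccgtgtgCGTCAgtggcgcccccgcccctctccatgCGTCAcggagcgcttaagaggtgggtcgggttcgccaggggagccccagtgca
Junb, chr19:40080876-40081125, plus strand: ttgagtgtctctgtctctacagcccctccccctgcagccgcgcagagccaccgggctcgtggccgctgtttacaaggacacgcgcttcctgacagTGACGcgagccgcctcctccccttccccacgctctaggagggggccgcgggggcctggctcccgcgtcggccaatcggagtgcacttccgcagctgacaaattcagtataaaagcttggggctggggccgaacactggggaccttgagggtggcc
Egr2, chr20:21054442-21054691, minus strand: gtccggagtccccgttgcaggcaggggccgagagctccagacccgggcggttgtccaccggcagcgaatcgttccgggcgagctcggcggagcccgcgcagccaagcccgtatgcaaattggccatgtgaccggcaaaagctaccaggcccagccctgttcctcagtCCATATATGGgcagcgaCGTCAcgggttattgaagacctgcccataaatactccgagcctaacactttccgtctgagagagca

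Nr4a1 held 4 copies of CGTCA in this window, Egr1 held 2, and Junb and Egr2 held 1 each. At least 1 copy on either strand was present in 18.2% of 33469 promoters of that length. The full element TGACGTCA, which contains the short motif, was in 1.59% of promoters and in none of the 4, and the AP-1 site TGANTCA was in 6.34% and in none of the 4. CArG boxes, found in 1.50% of promoters, numbered 2 in Egr1, 1 in Egr2 and 0 in Nr4a1 and Junb. These are matches of letters and not measured binding.

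Across the 16 arrays, which differ in group, age and preparation, Fos, Junb, Egr1, Egr2 and Nr4a1 went together, with Pearson correlations of 0.67 to 0.95 in their 10 pairs. Fos and Egr2 had the highest value, 0.95. Jun correlated at 0.12 with Fos and at 0.01 with Egr2, but at 0.64 with Junb and 0.67 with Nr4a3. These correlations are descriptions over arrays that share groups, with no test. The genes whose level most resembled the mean of the 8 were Dusp1 and Klf2 (0.91 each), Nr4a2 and Dyrk3 (0.88 each), Zfp36 (0.86), Fosb and Csrnp1 (0.85 each), and Klf4, Rgs2 and Gem (0.84 each). Of those 10, all but Dyrk3 and Gem were on the list of other immediate early genes. By single member, Nr4a1 was closest to Dusp1 (0.90), Atf3 to Klf4 (0.92) and Junb to Rgs2 (0.86), while Jun was closest to Mthfd1 and Fahd2a (0.94 each), genes of folate metabolism and of a hydrolase family. Over the 8 hyperplasia arrays alone, the genes most like the mean of the members were Grtp1, Tedc1 and Cpa3 (0.99 each), Chn2 (0.98) and C10h17orf58 (0.97), of which none was on the list. Cpa3 is a protease gene of mast cells.

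**Figure D5:**
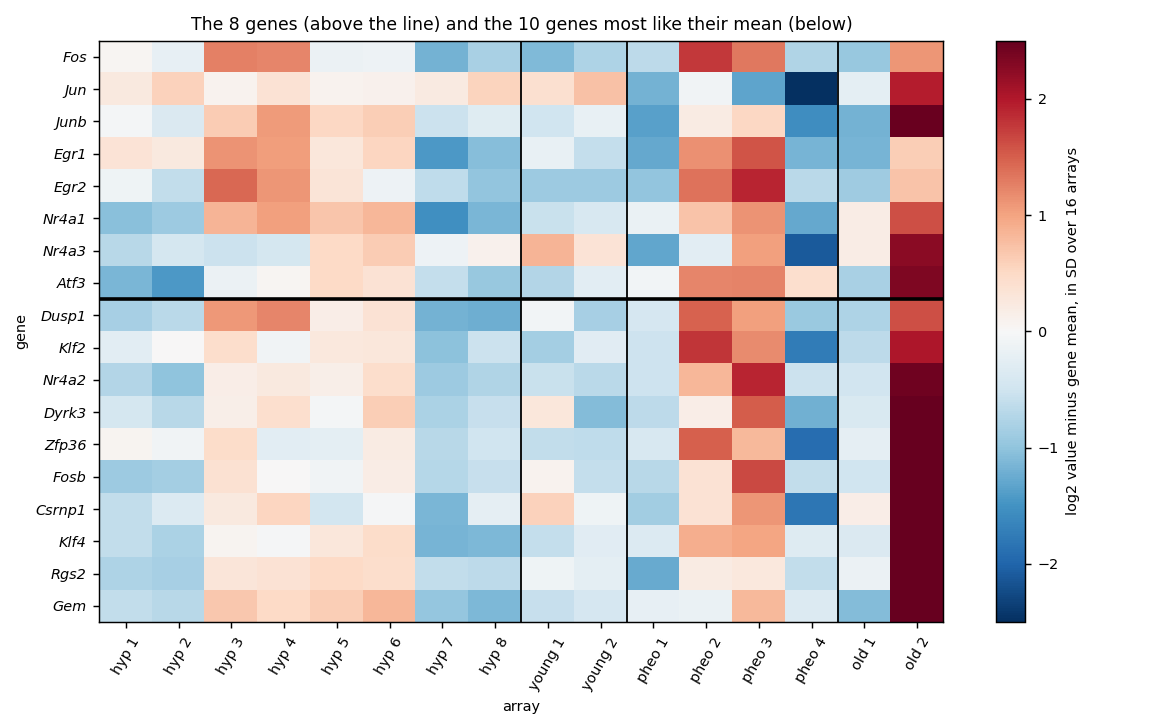
Colour gives each gene's log2 value minus its mean, in SD over the 16 arrays (columns, by group), for the 8 genes above the black line and the 10 genes most like their mean below it. Old pool 2, tumours 2 and 3 and hyperplasia arrays 3 to 6 are mostly red, and Jun departs from the others with its lowest values in tumours 1, 3 and 4.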

How the data were processed

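The 16 single-channel Affymetrix rat arrays measured total RNA that had been isolated with Trizol and RNeasy columns and biotin-labelled during amplification, per the labels' protocols. The deposited values are log2 values, 1 per probe set and array, made by the authors with RMA, per the submitters' processing notes (its version and which arrays were normalized together are not given in the sources used here). RMA normalizes quantiles over arrays, so a shift of most genes would not be seen. Array medians lay between 6.51 and 6.61. Precision is limited by how many arrays there are.

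Of 31099 probe sets, 57 controls were left out. The platform annotation gave 1 symbol to 20826 probe sets, several to 436 and none to 9780. The probe set brightest on average over 16 arrays stands for its gene. The model was fitted to all 16 arrays in limma 3.58.1 (R 4.3.3) with 4 group levels (12 residual degrees of freedom, prior 3.98), with Benjamini-Hochberg adjustment over 31042 probe sets and a threshold of 0.05, two-sided. The comparisons within hyperplasia used its 8 arrays alone. The code was tested on simulated data. Replicate samples are labelled biological, and each wild-type array pools animals. Replicate numbers were not used to pair samples in the main fit. Deviations from group means of arrays numbered 1 and 2 correlated at -0.08 and 0.05 for hyperplasia and young wild type. For pheochromocytoma and old wild type the values were -0.06 and 0.05. A wild-type group of 2 arrays gives mirrored deviations, so these values cannot decide whether same-numbered arrays were paired.

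The members and lists were chosen with earlier results of these data known, including the difference of Nr4a1 by Xist, so their counts are not independent support. A rule set which genes could be named, and not every gene it allows is named. It covered the 8 members and up to 4 passing genes of each list and comparison with the largest differences (the 2 with the smallest p where none passed). Also covered were Fosb, Nr4a2, Egr3, Jund, Dusp1, Myc, Th, Pnmt and Hspa1a, and the genes most like the members by Pearson correlation of their mean z score (10 over 16 arrays, 5 over the hyperplasia arrays, 2 per member). Homer1 and Ptgs2 beside Xist were named after their values were seen. Alternative settings changed the sex term, the hyperplasia arrays used (by Xist), the arrays fitted, the prior (trend, robust), the filter (the 30% dimmest removed), the scaling (quantile or median), array weights, a block for replicate number, a term for cortex markers, the choice of probe set (all averaged), and left out 1 array at a time. Pairs of neighbouring hyperplasia arrays, averaged or as a random block, were added after seeing the data.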

Additional observations from a re-analysis of the deposited data

How the results depend on the processing

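Each of the 8 genes was refitted under every alternative, which gave 1504 values. Of these, 1396 kept their direction and their side of the threshold, 17 passed where the reported value had not, 11 no longer passed, and 80 changed direction, of which 1 passed the threshold (Atf3, with Xist in place of the sex label). For hyperplasia against young wild type the count stayed at 0 of 8 under every alternative, leaving out each array included.

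For pheochromocytoma against old wild type the count of 1 became 0 with only the groups compared, 0 with array weights, 0 with the replicate number as a block and 0 with a term for cortex markers, and ran from 0 to 3 when single arrays were left out: 0 without old pool 2, 2 without tumour 3 (Jun and Nr4a3) and 3 without old pool 1 (Jun, Junb and Nr4a3). Jun passed in 24 of 29 alternatives, with differences of -1.89 to -0.55. For the difference of effects, leaving out arrays gave 0 to 2 (2 without old pool 1, Jun and Junb). For pheochromocytoma against hyperplasia the count of 1 became 3 with only the hyperplasia arrays without Xist (Jun, Nr4a1 and Atf3), and 2 with only the groups compared or with array weights (Jun and Atf3). It ran from 1 to 2 without single arrays, 2 being without either old pool. Jun passed in 32 of 32 there. For old against young wild type it ran from 0 to 2 (2 without old pool 1, Junb and Atf3).

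With Xist in place of the sex label, hyperplasia gave 4 calls instead of 0, and Atf3 reversed, to 1.14 (adjusted p = 0.00411) from -0.46 by label. The count of 4 by Xist ran from 3 to 5 without single arrays. Nr4a1, Junb and Atf3 passed in 17 of 17 alternatives and Egr2 in 11 of 17. The block by replicate number changed no other count of the 8 genes, and could not be fitted within hyperplasia, where the sexes share no numbers. The number of probe sets called also moved: 2296 for hyperplasia against young wild type (363 to 3988 over settings, 564 to 2687 leaving out arrays), 4425 for pheochromocytoma against old wild type (81 to 4869, and 596 to 4781), 8 for the difference of effects (0 to 133, and 0 to 649), 12631 for pheochromocytoma against hyperplasia (5563 to 14545), 7366 for old against young wild type (3447 to 8100) and 2720 by Xist (601 to 4011, and 1294 to 4889). Where only the groups compared were fitted, or an array was left out, fewer samples entered. The cause of the other changes was not tested. Each wild-type age had 2 pools, which limits the precision of every difference from it.

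The other changes of direction were these. For hyperplasia against young wild type they were Jun at 0.07 with the replicate number as a block and 0.30 with the cortex term, Atf3 at -0.51 with that block and -0.07 with that term, and Egr1 at -0.12, Nr4a1 at -1.03 and Atf3 at -0.50 with only the hyperplasia arrays without Xist. Leaving out arrays gave Atf3 -0.14 to 0.29. For pheochromocytoma against old wild type, the cortex term gave Fos -0.36, Egr1 -0.61 and Egr2 -0.33, the block gave Egr2 -0.02, and Atf3 was 0.07 with labelled sex and 0.06 with array weights. Leaving out arrays gave Fos -1.09 to 2.21, Junb -2.46 to 0.51, Egr1 -0.79 to 1.77, Egr2 -0.24 to 1.01 and Atf3 -1.52 to 1.40. For the difference of effects, Egr1 was 0.04 without the arrays whose Xist goes against the label, Egr1 0.61, Egr2 0.13 and Atf3 0.44 with only the hyperplasia arrays without Xist, and Atf3 0.10 with the block. Leaving out arrays gave Fos -2.62 to 0.69, Junb -2.90 to 0.07, Egr1 -1.55 to 1.02, Egr2 -0.99 to 0.26 and Atf3 -1.59 to 1.33.

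For pheochromocytoma against hyperplasia, Fos was -0.21, Egr2 -0.22 and Nr4a1 -1.14 with only the hyperplasia arrays with Xist, Fos -0.26 and Egr2 -0.04 with the block, and Nr4a1 -0.09 with Xist as a covariate. Egr1 was 0.22 without the arrays whose Xist goes against the label, 0.79 with only the arrays without Xist, 0.02 with quantile normalization, 0.14 with array weights and 0.03 with the cortex term. Leaving out arrays gave Fos -0.06 to 1.30, Egr1 -0.81 to 0.55, Egr2 -0.12 to 0.63 and Nr4a1 -0.14 to 1.07. For old against young wild type, Jun was -0.14 with the cortex term, and leaving out arrays gave Fos -0.02 to 3.29, Jun -0.47 to 0.81, Junb -0.68 to 2.29, Egr1 -1.11 to 1.46, Nr4a3 -0.75 to 3.01 and Atf3 -0.29 to 2.64. For labelled sex within hyperplasia, Xist in its place gave Jun -0.14 and Nr4a3 0.60, the mean of all probe sets gave Jun -0.05, the cortex term gave Junb -0.14 and Nr4a1 -0.76, and array weights gave Nr4a1 -0.04. Leaving out arrays gave Jun -0.01 to 0.10 and Nr4a1 -0.21 to 0.99.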
